A study of Homo sapiens with 6 samples.

Results

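The centromere, kinetochore and spindle checkpoint genes were taken as the rows of the expression table whose symbol is CENP followed by a single letter, together with 29 genes listed by symbol. This rule uses no measured value and found 50 of 20036 genes, 21 of them named CENP plus a letter. Levels were measured by RNA-seq in PANC-1, a long-established cell line from a human pancreatic carcinoma. A total of 3 libraries came from cells given a null control virus, and 3 from cells given a lentivirus that knocks down SHMT2, the mitochondrial enzyme that splits serine into glycine and a one-carbon unit. All 6 libraries therefore come from virus-treated cells. Details of the hairpin, any selection and the time after infection were not given in the sources used here. Replicates are numbered 1 to 3 in each group, and nothing says that they came from separate cultures. The p-values therefore reflect library-to-library spread alone, and that spread may be technical.

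The kinetochore is the protein structure that assembles on the centromere of each chromosome and holds it to spindle microtubules in mitosis. A constitutive centromere-associated network (CCAN) sits on chromatin marked by the histone variant CENPA, and the KMN network, named for KNL1, MIS12 and NDC80, binds it on one side and microtubules on the other. Kinetochores without microtubules recruit the spindle checkpoint kinases TTK and BUB1 and the MAD and BUB proteins, which hold back the anaphase-promoting complex. The chromosomal passenger complex, built around AURKB, releases wrong attachments, and shugoshins protect cohesion at the centromere. Many of these genes are transcribed mainly in late cell cycle phases, through CHR elements and CCAAT boxes close to their starts.

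The sequences of a few promoters show these elements. RefSeq promoter windows (GRCh38.p14, from 250 bases before to 50 bases after the start) were matched for 41 of the 50 genes. The CHR words TTTGAA or TTCGAA occurred on either strand in 19 of the 41 (46.3%), against 19.5% of all 27305 genes with a window. CCAAT, on either strand, occurred in 25 (60.98%, against 39.7%). The E2F or CDE words TTTCCCGC, TTTCGCGC, TTTGCCGC and TTTGGCGC occurred in 4 (9.76%, against 3.99%). Words of different elements may overlap in a sequence, and TTCGAA reads the same on both strands. A match describes letters only and is not a measured binding site. The 250 bases before the start are shown 5′ to 3′ on the gene's own strand for genes with the greatest rises and falls described later, with matched words in capitals. The rule takes CENPE, CENPF and SGO2 (the downstream of 2 RefSeq starts) among the rises and CENPX among the falls, and INCENP and PLK1 were added after their values were seen, as a gene that rose and a gene that fell with both elements in the printed bases. The CHR word of CENPF and a further ATTGG lie after its start, outside the bases shown. KNL1 and CENPM, which the rule also takes, are named only.
CENPE, chr4:103198344-103198593, minus strand: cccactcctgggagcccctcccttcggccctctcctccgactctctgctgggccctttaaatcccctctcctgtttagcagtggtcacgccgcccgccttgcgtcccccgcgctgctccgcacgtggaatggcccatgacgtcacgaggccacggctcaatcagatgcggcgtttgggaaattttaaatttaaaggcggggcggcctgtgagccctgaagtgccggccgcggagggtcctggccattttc
CENPF, chr1:214602945-214603194, plus strand: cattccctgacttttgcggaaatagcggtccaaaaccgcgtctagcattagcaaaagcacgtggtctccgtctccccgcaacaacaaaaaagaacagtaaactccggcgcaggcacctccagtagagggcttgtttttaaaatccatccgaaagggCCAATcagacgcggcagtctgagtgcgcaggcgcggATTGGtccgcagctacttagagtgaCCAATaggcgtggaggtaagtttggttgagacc
SGO2, chr2:200525957-200526206, plus strand: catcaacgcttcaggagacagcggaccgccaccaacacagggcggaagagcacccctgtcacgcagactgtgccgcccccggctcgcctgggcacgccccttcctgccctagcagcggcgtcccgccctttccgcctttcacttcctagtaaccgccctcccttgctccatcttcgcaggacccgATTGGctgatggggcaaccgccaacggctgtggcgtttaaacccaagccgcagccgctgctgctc
CENPX, chr17:82022879-82023128, minus strand: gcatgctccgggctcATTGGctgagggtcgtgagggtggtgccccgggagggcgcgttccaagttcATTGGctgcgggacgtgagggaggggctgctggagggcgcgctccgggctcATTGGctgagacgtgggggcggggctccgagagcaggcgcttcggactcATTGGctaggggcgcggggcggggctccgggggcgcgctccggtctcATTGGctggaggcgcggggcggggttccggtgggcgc
INCENP, chr11:62123761-62124010, plus strand: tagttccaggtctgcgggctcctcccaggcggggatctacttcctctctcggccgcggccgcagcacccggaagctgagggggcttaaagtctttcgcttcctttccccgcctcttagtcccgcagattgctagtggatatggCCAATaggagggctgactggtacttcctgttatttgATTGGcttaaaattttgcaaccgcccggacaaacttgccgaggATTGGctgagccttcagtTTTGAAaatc
PLK1, chr16:23678639-23678888, plus strand: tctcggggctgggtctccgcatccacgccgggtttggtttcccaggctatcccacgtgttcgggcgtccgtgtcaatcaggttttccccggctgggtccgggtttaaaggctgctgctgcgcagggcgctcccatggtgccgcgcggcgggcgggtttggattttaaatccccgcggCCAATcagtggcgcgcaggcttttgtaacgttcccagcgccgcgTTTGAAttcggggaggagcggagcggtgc
CENPX carried 5 copies of the reverse CCAAT word ATTGG, and CENPE carried none of the searched words. Of genes with a window, a CHR word was found in 8 of 15 that rose, 3 of 7 that fell and 8 of 18 that did not pass the test, so the word was present in all 3 sets.

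Library totals ran from 15405884 to 19075734 counts. SHMT2 had 2113, 2284 and 2417 counts in the control libraries and 139, 56 and 101 in the knockdown libraries, a log2 fold change of -4.80 (SE 0.23), in the direction the labels give. Control replicate 1 and knockdown replicate 2 stood apart within their groups. The chi-square of counts per gene was 25.4 and 30.4 between control replicate 1 and the other controls, and 74.96 and 76.5 between knockdown replicate 2 and the other knockdown libraries, but 2.06 and 2.46 within the remaining pairs. Mitochondrial genes took 10.4% of counts in knockdown replicate 2, 4.72% in knockdown replicates 1 and 3, and between 5.78 and 6.86% in control libraries. Of 7 epithelial and pancreatic duct markers, all tested, 3 rose, 2 fell and 2 did not pass, and their sum was 1427 to 1770.1 CPM in the controls and 1969.99 to 2405 CPM in the knockdown libraries. KRT8 made up most of it and rose by 0.58. The ductal keratin KRT19 stood at 0.189, 0.267 and 0 CPM in control and 75.7, 54.98 and 78.6 CPM in knockdown replicates 1, 2 and 3, so it was at or near 0 in every control and clearly present in every knockdown library. The cadherin CDH1 rose by 2.06 from a low level, EPCAM and SOX9 fell by 1.38 and 0.39, and KRT18 and KRT7 did not pass. Immune markers summed to 0.802 to 1.84 CPM in the controls and 2.26 to 3.11 CPM in the knockdown libraries over 6 genes, of which 2 were at 0 in every library. Endothelial markers summed to 0.441 to 0.668 and 5.86 to 7.25 CPM over 5 genes, with KDR called higher. Fibroblast markers summed to 80.7 to 94.9 and 47.8 to 51.3 CPM over 5 genes, with 1 at 0. COL1A1, most of that sum, fell by 0.92, and COL3A1 rose by 1.10. Acinar and endocrine markers summed to at most 0.696 CPM, with 6 of 9 genes at 0. Of the embryonic kidney markers (18.9 to 20.5 and 26.2 to 38.3 CPM), 2 of 4 were at 0 and LHX1 rose. The part of these differences in the results was not tested.

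Of the 50 genes, 49 had enough counts to be tested, and 18 rose and 9 fell in the knockdown libraries at an adjusted p below 0.05 (edgeR quasi-likelihood test, Benjamini-Hochberg over 12292 genes). That is 36.7% and 18.4% of the tested members, where 26.7% and 25.1% of all tested genes rose and fell, 51.8% in all. The median log2 fold change was 0.24, against 0.0030 over all tested genes. At least 2-fold rises were seen in 7 members, 14.3% against 9.81% of all genes, and they were CENPE, CENPF, SGO2, KNL1, NUF2, TTK and CENPJ. The groups did not overlap in 22 members that were higher (44.9%, background 31.3%) and 10 that were lower (20.4%, background 30.2%). MAD1L1, the checkpoint protein that holds MAD2L1 at the kinetochore, was the gene with too few counts, 6, 16 and 8 in control and 6, 2 and 4 in knockdown replicates 1, 2 and 3. In such bulk libraries, a change in the share of cells in mitosis and a change in RNA per cell cannot be told apart.

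**Figure D1:**
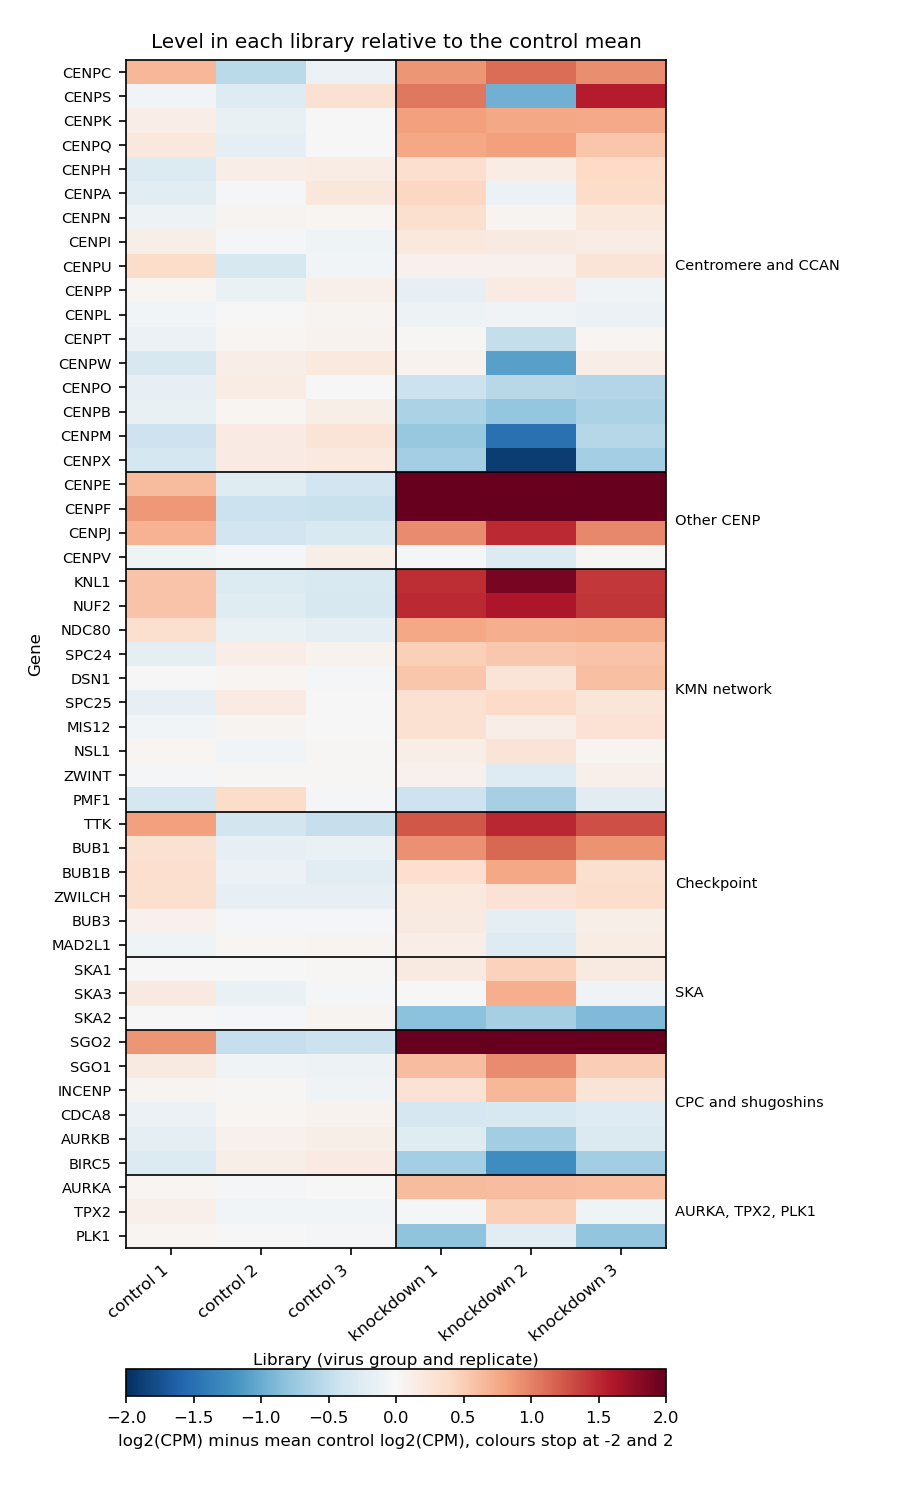
Level of each tested gene (rows, grouped by role) in each library (columns), as log2 CPM minus the mean control log2 CPM, with colours that stop at -2 and 2. CENPE, CENPF and SGO2 were high in all 3 knockdown libraries, control replicate 1 was the highest control for these genes, and SKA2, BIRC5 and CENPB were low in all 3 knockdown libraries.

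Without knockdown replicate 2, 18 members rose and 8 fell (36.7% and 16.3%, where 26.1% and 27.8% of all genes did, 53.9% in all), and the median was 0.24. The calls of 7 members differed between the fits. MIS12, CENPN and CENPS were called higher only without it, and CENPC, CENPJ, SPC25 and AURKB lost their calls, each keeping its direction. Without control replicate 1 and knockdown replicate 2 together, 30 members rose and 10 fell (61.2% and 20.4%), where 36.9% and 36.7% of all genes rose and fell, 73.6% in all. Both shares of all genes were also larger in that fit, which compares 2 closely matching libraries with 2 others. The median there was 0.23.

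**Figure D2:**
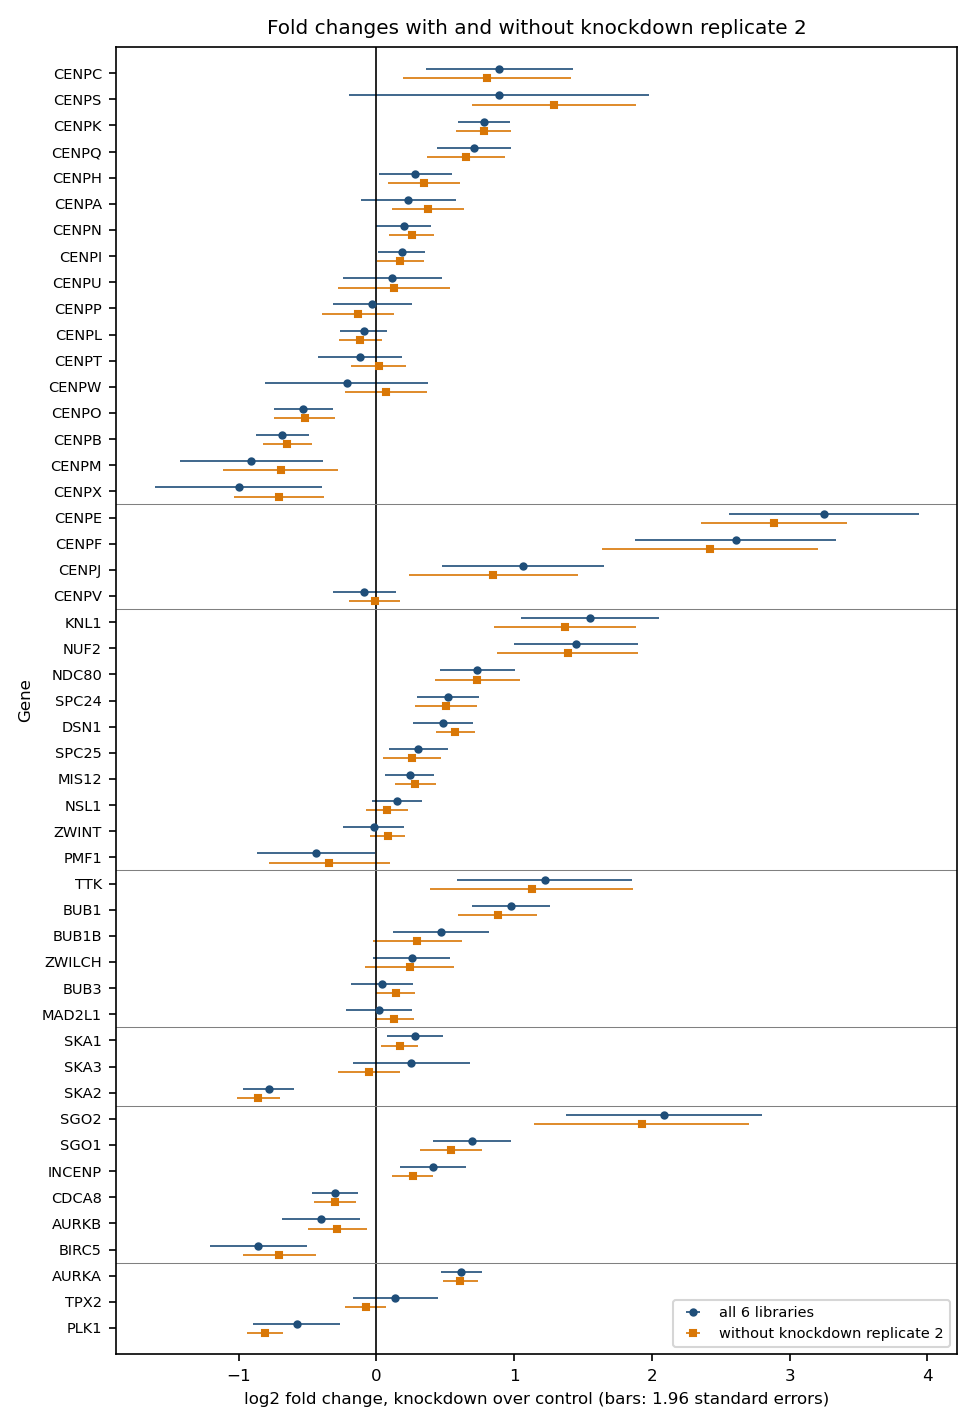
Log2 fold change of each tested gene (knockdown over control) with all 6 libraries (circles) and without knockdown replicate 2 (squares), with bars of 1.96 standard errors on each side. CENPE (3.25 and 2.89) and CENPF (2.61 and 2.42) were the highest in both fits, and the width of the bar of CENPS shrank without that library.

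The mitotic proteins CENPE and CENPF, which are found in the fibrous corona at the outer face of the kinetochore, showed the greatest rises of the tested members. Gene positions are those of the deposited table, which states no build. CENPE (ENSG00000138778, chromosome 4, 103105349 to 103198445, minus strand), a kinesin that carries chromosomes along microtubules, stood at 11.3, 6.15 and 5.57 CPM in control replicates 1, 2 and 3 and at 53.7, 105 and 60.8 CPM in knockdown replicates 1, 2 and 3. Every knockdown library lay above every control, and knockdown replicate 2 was the highest of all. The change was 3.25 on the log2 scale (SE 0.35, adjusted p = 0.000306). CENPF (ENSG00000117724, chromosome 1, 214603195 to 214664571, plus strand), a large protein that links dynein regulators to the kinetochore, stood at 135, 55.05 and 54.04 CPM in the controls and 422, 609.9 and 458 CPM in the knockdown libraries, with a log2 fold change of 2.61 (SE 0.37, adjusted p = 0.00101). Its groups were far apart, although control replicate 1 was more than double the other controls. CENPJ, which despite its symbol acts at centrioles, stood at 37.3, 17.8 and 18.7 CPM and 44.4, 65.00 and 44.9 CPM, and rose by 1.06 (SE 0.30, adjusted p = 0.0193). That call was lost without control replicate 2 (0.0676), control replicate 3 (0.0666) or knockdown replicate 2 (0.058). CENPV, a further gene with this symbol pattern, lay at 31.1 ± 2.39 and 29.2 ± 3.12 CPM (mean ± SD, n = 3 per group) and did not pass the test (adjusted p = 0.552).

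**Figure D3:**
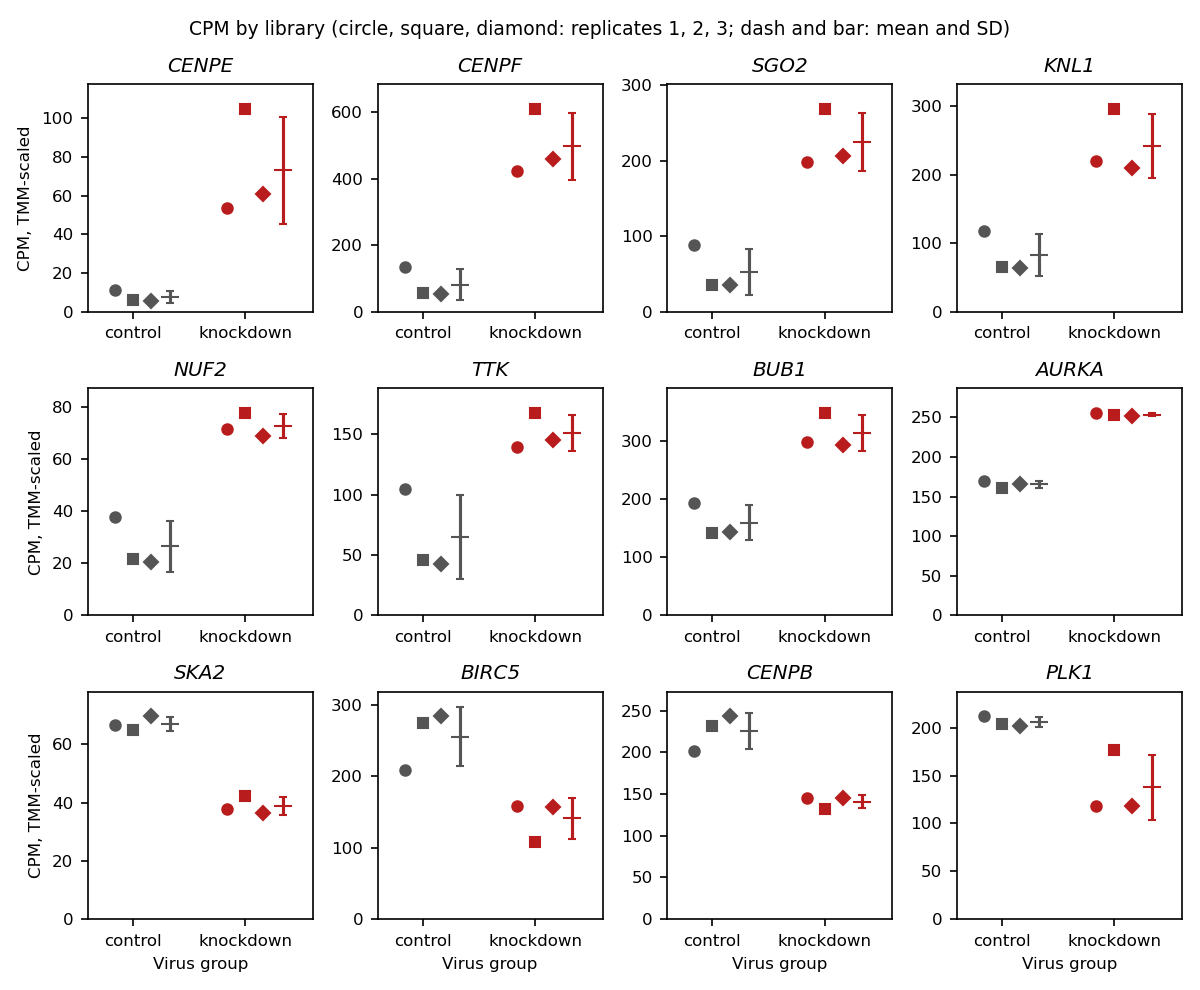
TMM-scaled CPM of 12 genes in each library, with control libraries in grey and knockdown libraries in red, replicate symbols as given in the title, and the mean and SD (n = 3) beside them. All 12 were picked from the called members, and their groups did not overlap, as in 31.3% (higher) and 30.2% (lower) of all tested genes. AURKA had narrow groups. Control replicate 1 was the highest control in CENPE, CENPF, SGO2, KNL1, NUF2, TTK and BUB1, and by a small margin in AURKA and PLK1.

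Of the 17 inner centromere and CCAN genes, all tested, 3 rose (17.6%, against 26.7% of all tested genes), 4 fell (23.5%, against 25.1%) and 10 did not pass, with a median log2 fold change of 0.12. Without control replicate 1 and knockdown replicate 2 together, 9 rose and 4 fell (52.9% and 23.5%), where 36.9% and 36.7% of all genes did. The standing of their rises against all genes thus depended on these libraries. CENPK, of the CENPH, CENPI, CENPK and CENPM subcomplex, stood at 55.3, 45.4 and 50.8 CPM in control and 89.1, 86.01 and 85.2 CPM in knockdown replicates 1, 2 and 3. The knockdown libraries were all higher and close to each other (log2 fold change 0.78, SE 0.10, adjusted p = 0.000561). CENPK also had the lowest GC content of the members (32.9%), and its value was 0.25 after the length and GC trend described below was subtracted. CENPB, which binds a motif in alpha satellite DNA, stood at 202, 232 and 243 CPM and 145, 132 and 146 CPM, and fell by 0.68 on the log2 scale (SE 0.10, adjusted p = 0.00109). CENPQ, of the CENPO subcomplex, stood at 18.5, 13.96 and 15.9 CPM and 27.4, 28.3 and 23.5 CPM and rose by 0.71 (adjusted p = 0.00385). Its partner CENPO moved the other way, from 40.5, 49.97 and 45.4 CPM to 33.3, 30.6 and 30.1 CPM, and fell by 0.53 (adjusted p = 0.00503). The opposite calls of these partners were the same without knockdown replicate 2. CENPO shares 31.4% of its exon bases with genes on the opposite strand, so its level is uncertain where strand was not used in counting.

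The calls of the other CCAN genes that passed depended on single libraries. CENPC, which bridges CENPA chromatin and the MIS12 complex, stood at 19.1, 8.28 and 11.1 CPM in the controls and 22.4, 26.3 and 23.04 CPM in the knockdown libraries. Control replicate 1 lay close to the knockdown libraries, and the rise of 0.89 (adjusted p = 0.0269) was lost when any library but control replicate 1 was left out (adjusted p from 0.0546 to 0.0893). CENPM stood at 11.6, 17.4 and 18.7 CPM and 9.24, 5.56 and 10.5 CPM, and fell by 0.91 (adjusted p = 0.0219), a call lost without control replicate 2 (0.0709) or 3 (0.0748). CENPX, a histone fold protein that also serves in DNA repair, stood at 52.4, 74.8 and 76.4 CPM and 41.9, 17.96 and 41.6 CPM. Knockdown replicate 2 was less than the other knockdown libraries by a wide margin. Its log2 fold change was -1.001 (adjusted p = 0.0283) with all libraries and -0.71 without that library (0.0123), and its call was lost without control replicate 2 (0.0827) or 3 (0.0807) and with library size alone (0.0526). CENPX lies among genes that were themselves lower, with a median of -0.67 over its 50 nearest tested neighbours.

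The histone variant CENPA itself stood at 19.6, 22.3 and 26.5 CPM in control and 30.3, 20.8 and 29.1 CPM in knockdown replicates, with overlapping groups and no call (log2 fold change 0.23, SE 0.17, adjusted p = 0.298). CENPH, CENPI, CENPN and CENPU had positive fold changes of 0.28, 0.18, 0.20 and 0.12 that did not pass (adjusted p from 0.109 to 0.625). CENPN, which reads CENPA nucleosomes, passed without knockdown replicate 2 (log2 fold change 0.26, adjusted p = 0.0406). The histone fold pair CENPT and CENPW, with CENPL and CENPP, had values of -0.12, -0.21, -0.093 and -0.029 (adjusted p from 0.39 to 0.882). CENPW was low in knockdown replicate 2 alone, at 35.5, 15.9 and 37.2 CPM in the knockdown libraries against 27.3, 37.1 and 38.7 CPM in the controls. CENPS had 11, 9 and 14 counts in the controls and 30, 6 and 41 in the knockdown libraries, too few for a firm fold. The readthrough gene CENPS-CORT covers 64.7% of its exon bases on the same strand. It had no call with all libraries (adjusted p = 0.213) and a call without knockdown replicate 2 (0.0122).

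In the KMN network, which makes the end-on contact with microtubules, 6 of 10 genes rose, 0 fell in edgeR and 4 did not pass, where 26.7% of all tested genes rose and 25.1% fell. The count of falls was also 0 at an unadjusted p below 0.05 and 0 with DESeq2. Without control replicate 1 and knockdown replicate 2 together, 7 rose and 1 (PMF1) fell. KNL1 (ENSG00000137812, chromosome 15, 40594020 to 40664342, plus strand), the scaffold for checkpoint proteins, stood at 117, 65.7 and 64.2 CPM in control and 220.0, 296 and 209.7 CPM in knockdown replicates 1, 2 and 3. The lowest knockdown library was well above the highest control, and it rose by 1.55 on the log2 scale (SE 0.26, adjusted p = 0.0019). NUF2 (ENSG00000143228, chromosome 1, 163266576 to 163355764, plus strand), the partner of NDC80 in the microtubule-binding head, stood at 37.9, 21.5 and 20.3 CPM and 71.7, 77.9 and 68.7 CPM, a log2 fold change of 1.45 (SE 0.23, adjusted p = 0.00159). NDC80 stood at 118, 86.5 and 83.2 CPM and 163, 157 and 159 CPM, and rose by 0.73 (SE 0.14, adjusted p = 0.00357). All 4 subunits of the NDC80 complex passed the test. SPC24, in the stalk that holds the MIS12 complex, stood at 19.1, 24.1 and 22.9 CPM and 30.5, 31.7 and 32.5 CPM and rose by 0.52 (adjusted p = 0.00699). Its partner SPC25 stood at 35.7, 45.03 and 40.3 CPM and 49.6, 52.5 and 47.4 CPM, and its rise of 0.30 (adjusted p = 0.0487) was lost without control replicate 1 (0.098) or 3 (0.128) and without knockdown replicate 1 (0.11), 2 (0.0856) or 3 (0.0723).

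In the MIS12 complex, which joins the CCAN to the NDC80 complex, 1 of 4 subunits passed. DSN1, whose tail AURKB phosphorylates, stood at 42.6, 43.4 and 41.4 CPM in control and 62.3, 51.01 and 64.7 CPM in knockdown replicates 1, 2 and 3, and rose by 0.48 (SE 0.11, adjusted p = 0.00817). The controls were within 2 CPM of each other. MIS12 lay at 38.3, 41.4 and 40.3 CPM and 49.3, 43.8 and 48.6 CPM, without overlap but with an adjusted p of 0.058, and passed without knockdown replicate 2 (0.0196). NSL1 had a log2 fold change of 0.15 (adjusted p = 0.219) and PMF1 one of -0.44 (adjusted p = 0.128). PMF1 passed as lower without control replicate 1 (-0.60, adjusted p = 0.0465). It also passed as lower without that library and knockdown replicate 2 together (-0.49, adjusted p = 0.0104). PMF1 had few reads (4.85, 7.95 and 6.07 CPM and 4.62, 3.91 and 5.33 CPM), and PMF1-BGLAP covers 23.3% of its exon bases on the same strand. ZWINT, which binds KNL1, stood at 119 ± 2.88 and 118 ± 16.01 CPM (SD, n = 3) with a log2 fold change of -0.019 (adjusted p = 0.901).

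Of the 7 spindle checkpoint genes, 6 were tested, 2 rose (33.3%, against 26.7% of all tested genes) and 0 fell in edgeR (against 25.1%), with 0 falls also at an unadjusted p below 0.05 and 0 with DESeq2. Without control replicate 1 and knockdown replicate 2 together, all 6 rose, where 36.9% of all genes did. BUB1 (ENSG00000169679, chromosome 2, 110637528 to 110678063, minus strand), the kinase that recruits shugoshins and the passenger complex through histone phosphorylation, stood at 194, 141 and 143 CPM in control and 298, 349 and 293 CPM in knockdown replicates 1, 2 and 3. The groups were well apart (log2 fold change 0.98, SE 0.14, adjusted p = 0.00121). Its 50 nearest tested neighbours had a median of 0.68, the highest of any member. TTK, the kinase that starts checkpoint signalling on KNL1, stood at 105, 46.1 and 42.97 CPM and 139.9, 168 and 145 CPM. Control replicate 1 lay between the remaining controls and the knockdown libraries, and the rise of 1.22 (SE 0.32, adjusted p = 0.0151) lost its call without control replicate 2 (0.0548).

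The members that form the mitotic checkpoint complex with CDC20, namely BUB1B, BUB3 and MAD2L1, did not pass with all libraries. BUB1B, its BUBR1 subunit, stood at 168, 123 and 115 CPM and 169, 227 and 166 CPM, where control replicate 1 matched knockdown replicates 1 and 3 (log2 fold change 0.47, adjusted p = 0.0589). It passed without control replicate 1 (0.0125) and with DESeq2 (0.0431). The readthrough gene BUB1B-PAK6 covers 10.2% of its exon bases. MAD2L1, the MAD2 protein that changes shape to bind CDC20, stood at 123, 135 and 135 CPM and 144, 109.5 and 145 CPM with a log2 fold change of 0.019 (SE 0.12). BUB3, the adaptor that brings BUB1 and BUBR1 to KNL1, stood at 276 ± 14.4 and 285 ± 38.3 CPM (SD, n = 3) with a log2 fold change of 0.042. For both genes knockdown replicate 2 was the lowest library of all 6. Without control replicate 1 and knockdown replicate 2 together, both were called higher, BUB3 by 0.20 (adjusted p = 1.62e-06) and MAD2L1 by 0.10 (adjusted p = 0.0379). ZWILCH, of the complex that brings dynein to kinetochores, had a log2 fold change of 0.26 (adjusted p = 0.168) and passed without control replicate 1 (0.00597).

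The SKA complex, which helps the NDC80 complex follow shrinking microtubule ends, split by subunit. SKA2 (ENSG00000182628, chromosome 17, 59109857 to 59155260, minus strand) stood at 66.5, 64.9 and 69.7 CPM in control and 37.9, 42.5 and 36.5 CPM in knockdown replicates 1, 2 and 3. Its groups were far apart and each was narrow (log2 fold change -0.78, SE 0.094, adjusted p = 0.000477), and it had a GC content of 37.4%, the lowest of the members that fell. SKA1 stood at 65.2, 65.1 and 66.8 CPM and 74.5, 90.6 and 74.2 CPM, just short of the threshold (log2 fold change 0.28, adjusted p = 0.0527). SKA3 stood at 52.9, 42.5 and 45.2 CPM and 46.6, 77.03 and 44.3 CPM, high in knockdown replicate 2 alone, the library with the large mitochondrial share, whose part in this value was not tested. Its log2 fold change was 0.25 with all libraries and -0.055 without that library, with no call in either fit.

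In the chromosomal passenger complex, 1 subunit rose and 3 fell, and with the shugoshins 3 of 6 genes rose and 3 fell, beside the 26.7% and 25.1% of all tested genes. INCENP, the scaffold that binds and activates AURKB, stood at 82.8, 80.7 and 75.7 CPM in control and 97.6, 126 and 95.1 CPM in knockdown replicates 1, 2 and 3, and rose by 0.41 (SE 0.12, adjusted p = 0.0247). Without knockdown replicate 2, its highest library, the value was 0.26 (0.0249), and the call was lost without control replicate 2 (0.0749) or 3 (0.0909). BIRC5 (ENSG00000089685, chromosome 17, 78214186 to 78225636, plus strand), or survivin, which brings the complex to phosphorylated histone H3, stood at 209, 275 and 284 CPM and 159, 108 and 157 CPM, and fell by 0.86 (SE 0.18, adjusted p = 0.0057). Every knockdown library lay below every control, with a median of -0.59 among its 50 nearest tested neighbours. CDCA8, or borealin, stood at 164, 182 and 186 CPM and 141, 142 and 149 CPM and fell by 0.30 (adjusted p = 0.0196), a call lost without control replicate 2 (0.0813), control replicate 3 (0.0865) or knockdown replicate 1 (0.0745), and with library size alone (0.0773). The kinase AURKB stood at 70.5, 86.2 and 87.6 CPM and 68.2, 50.2 and 66.3 CPM. Its highest knockdown library was just below its lowest control, control replicate 1. It fell by 0.40 (adjusted p = 0.0479), a call lost without control replicate 2 (0.14) or 3 (0.142), without knockdown replicate 2 (0.0647) or 3 (0.0636), and with library size alone (0.145).

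Both shugoshins rose. SGO2 (ENSG00000163535, chromosome 2, 200510008 to 200584096, plus strand), which holds the phosphatase PP2A at centromeres, stood at 88.1, 34.8 and 35.5 CPM in control and 198, 269 and 207 CPM in knockdown replicates 1, 2 and 3. Control replicate 1 was more than double the other controls and still far below the lowest knockdown library. The rise was 2.09 on the log2 scale (SE 0.36, adjusted p = 0.00241). SGO1, the main guard of centromeric cohesin in mitosis, stood at 31.03, 25.99 and 25.6 CPM and 41.99, 52.8 and 38.6 CPM, and rose by 0.69 (SE 0.14, adjusted p = 0.00557). Both calls held when each library was left out in turn. SGO1 shares 17.7% of its exon bases with its antisense gene SGO1-AS1, and reads of the pair cannot be told apart without strand.

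The spindle kinases moved in opposite directions. AURKA (ENSG00000087586, chromosome 20, 56369389 to 56392337, minus strand), the centrosomal Aurora kinase, stood at 169.6, 161 and 166 CPM in control and 256, 253 and 252 CPM in knockdown replicates 1, 2 and 3. The spread within each group was small, and it rose by 0.62 (SE 0.075, adjusted p = 0.000495) with all libraries and 0.61 without knockdown replicate 2. PLK1, the Polo kinase that acts with it from mitotic entry onward, stood at 212, 204 and 202 CPM and 118, 177 and 119 CPM. Knockdown replicate 2 lay between the other knockdown libraries and the controls, so the change was -0.58 on the log2 scale (SE 0.16, adjusted p = 0.0187) with all libraries and -0.81 (adjusted p = 0.00024) without it. The call was lost without control replicate 2 (0.0527) or knockdown replicate 1 (0.0733) or 3 (0.0684). TPX2, which activates AURKA on the spindle, stood at 899, 805 and 801 CPM and 810.3, 1159.5 and 782 CPM, with overlapping groups and no call (log2 fold change 0.14, adjusted p = 0.496).

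Levels of different genes were compared per length, with the deposited FPKM (reads scaled by the deposited gene length and by library size). That length exceeds the longest coding transcript unevenly, with 13867 against 2317 bases for NSL1 but 3605 against 3605 for TPX2. Places and shares of different genes, here and below, depend on it. TPX2 was highest in both groups, at 225 ± 16.2 FPKM in control and 260.1 ± 47.2 FPKM in knockdown libraries (mean ± SD, n = 3), followed in the controls by CENPB (75.9 ± 6.73 FPKM), CDCA8 (71.5 ± 4.34 FPKM) and BIRC5 (65.1 ± 10.2 FPKM). The last 3 lay within their spread of each other, and TPX2 lay far above them. In the knockdown libraries AURKA came next, at 89.1 ± 4.21 FPKM. CENPF moved from place 40 of 50 (6.80 ± 3.93 FPKM) to place 8 (43.6 ± 6.74 FPKM), and SGO2 from place 33 (8.11 ± 4.75 FPKM) to place 11 (36.3 ± 4.56 FPKM). CENPE, despite the greatest fold change, remained low, at 7.50 ± 2.48 FPKM. CENPX moved from place 7 to 23 and SKA2 from place 19 to 33.

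Shares of the summed FPKM of each complex show the uneven change within them. Within the NDC80 complex, NUF2 took 12.03 ± 3.38% of the FPKM of the 4 subunits in control and 20.6 ± 0.849% in knockdown libraries (SD, n = 3), and SPC25 took 34.4 ± 5.94% and 25.96 ± 0.736%. NDC80 kept the largest mean share, at 41.5 ± 4.81% and 42.8 ± 1.34%, with overlapping groups. Within the SKA complex, SKA2 took 35.1 ± 1.13% and 20.9 ± 1.89%, while SKA1 took 38.4 ± 1.29% and 47.5 ± 2.61%. Within the passenger complex, BIRC5 took 34.3 ± 2.28% and 24.8 ± 3.83% and INCENP 9.27 ± 1.33% and 16.2 ± 3.66%, whereas the share of AURKB was 18.6 ± 0.359% and 18.5 ± 1.98%. In the MIS12 complex, DSN1 took 45.8 ± 1.27% and 51.5 ± 2.07%. These shares were not tested.

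**Figure D4:**
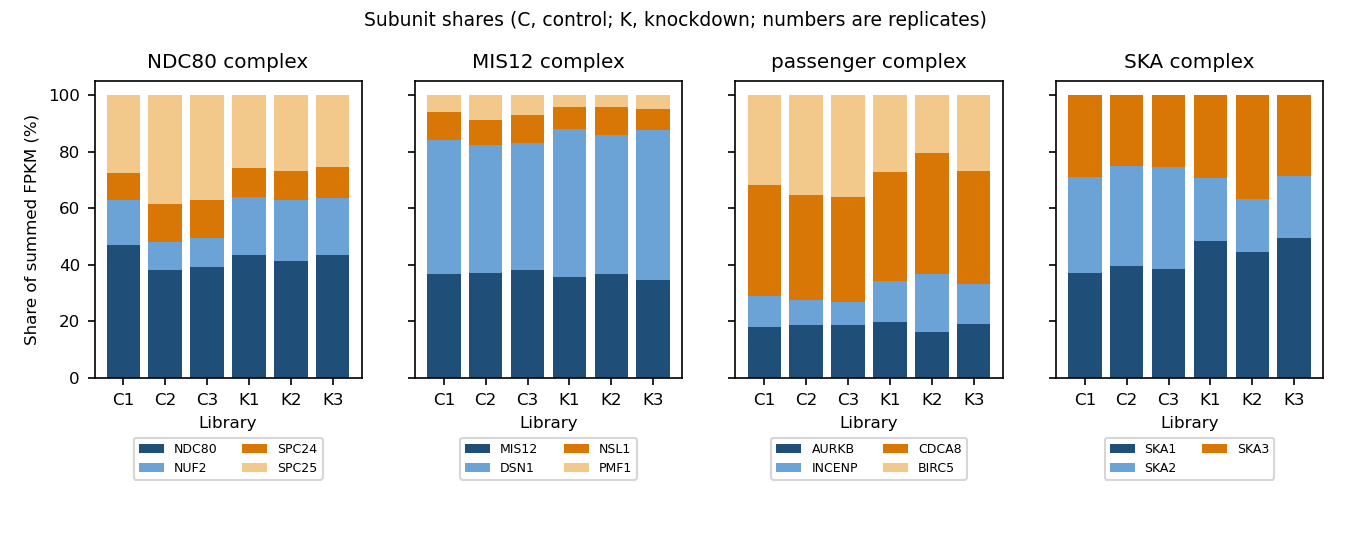
Share of each subunit in the summed FPKM of its complex (percent, stacked to 100) in control (C) and knockdown (K) libraries, numbered by replicate. Between the groups, without overlap, the share of NUF2 was larger and the shares of SKA2 and BIRC5 were smaller in the knockdown libraries, and control replicate 1 stood nearest to the knockdown libraries for NUF2.

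The members that rose and fell also differed in base composition. GC content was taken from the longest coding transcript in GENCODE 29, with a median of 40.4% in the 18 members that rose, 55.6% in the 9 that fell and 42.8% in the 22 that did not pass. Across the 49 tested members, log2 fold change and GC content had a Pearson correlation of -0.59 (Spearman -0.57), and over all 12274 tested genes with a value -0.30 (Spearman -0.40). Genes of 1 set of libraries are not independent replicates, and all values share the same depth and scaling. Of the 17 members with a GC content up to 40.8%, 11 rose (median log2 fold change 0.73), whereas 50.8% of all genes in that range rose (median 0.42). Of the 16 members from 47.8% upward, 8 fell and 2 rose, and 35.4% and 14.7% of all genes in that range did. Of the 16 members between these ranges, 5 rose and 0 fell, where 32.8% and 17.5% of all genes did. The median GC content was 42.6% over the 50 members and 48.6% over all tested genes. The shares of all tested genes given beside those of the members are therefore not matched for GC content. After a smooth trend over gene length and GC content was subtracted, all 18 members that rose and all 9 that fell kept their sign. Those members were picked by their change in these same data, and the trend had an adjusted R-squared of 9.74%. Their kept signs were therefore likely from the start and say little about base composition. Of the 22 members that did not pass, 14 kept their sign. For members that rose the values then ran from 0.11 (SPC25) to 2.69 (CENPE), and for those that fell from -1.12 (SKA2) to -0.089 (AURKB). The median of all 49 was 0.17. BIRC5 had -0.67, PLK1 -0.29 and CENPB -0.21 on that scale. Of the members that rose, CENPK went from 0.78 to 0.25 and CENPQ from 0.71 to 0.29. INCENP, SPC24 and AURKA had larger values than before, at 0.74, 0.76 and 0.64.

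The members with the greatest rises were also high in control replicate 1 among the controls. In the 7 members with at least 2-fold rises, the log2 ratio of control replicate 1 to replicates 2 and 3 ran from 0.85 to 1.32, and control replicate 1 was the highest control and knockdown replicate 2 the highest knockdown library in all 7. Over all tested genes the median of that ratio was -0.017. Control replicate 1 was the highest control in 15 of the 18 members that rose and the lowest in 7 of the 9 that fell. Without control replicate 1 and knockdown replicate 2 together, the log2 fold changes of CENPE, CENPF, SGO2 and KNL1 were 3.29, 3.02, 2.53 and 1.73. Without control replicate 1 alone they were larger, at 3.63, 3.18, 2.67 and 1.89. Without knockdown replicate 2 alone they were smaller, at 2.89, 2.42, 1.93 and 1.37. Leaving out both libraries therefore combines shifts of opposite direction. In the fit without both, AURKA and SKA2, for which control replicate 1 lay with the other controls, had values of 0.64 and -0.85. Any part of base composition in these results was not tested beyond the trend subtracted above.

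**Figure D5:**
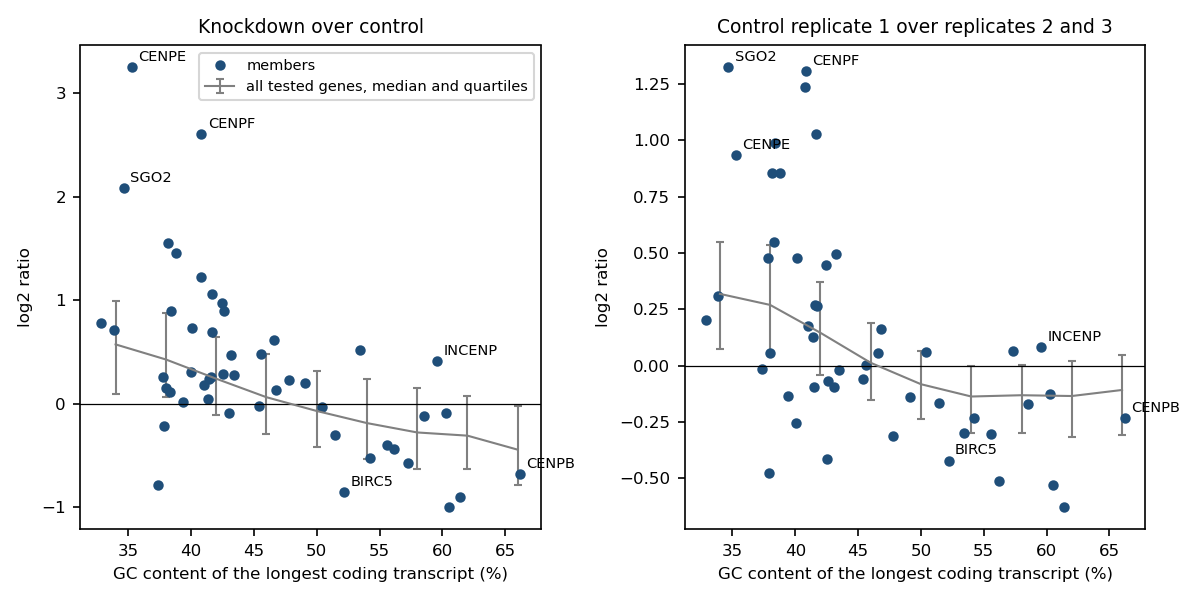
Log2 ratio of knockdown over control (left) and of control replicate 1 over control replicates 2 and 3 (right) against the GC content of the longest coding transcript (%), with members as points and all tested genes as a grey line of medians with quartile bars in bins 4 points wide. The median of the 17 members of lowest GC content was 0.73 on the left and 0.48 on the right, although SKA2 and CENPW, among them, lay below 0 in both, and CENPE, CENPF and SGO2 lay above the upper quartile of all genes in both.

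The position of a member on its chromosome was also set beside its value. Medians of the 50 nearest tested genes ran from -0.67 for CENPX to 0.68 for BUB1, and 90% of such medians over all tested genes lay between -0.47 and 0.50. After subtraction, BUB1 had a value of 0.29, BIRC5 -0.27 and CENPX -0.33, while CENPE, with a neighbour median of 0.016, was nearly the same. All 27 members that rose or fell, picked by their change in these same data, kept their sign, as did 15 of the 22 that did not pass. Some values of the 27 shrank. AURKA went from 0.62 to 0.19, AURKB from -0.40 to -0.13 and CDCA8 from -0.30 to -0.062. Others grew in size, such as SGO1 (0.69 to 0.91) and PLK1 (-0.58 to -0.64). NSL1 and ZWINT, on chromosomes 1 and 10, had neighbour medians of 0.52 and 0.47 and did not pass the test themselves.

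Genes that act with the members were described from lists chosen by function. Counts in these lists stand beside the 26.7% and 25.1% of all tested genes that rose and fell (26.1% and 27.8% without knockdown replicate 2), and no difference from those shares was tested. Of 15 further checkpoint and corona genes, 7 rose and 3 fell (46.7% and 20.00%). Without knockdown replicate 2 these counts were 4 and 3, near the share of all genes for the rises. TPR, a nuclear pore protein that binds MAD1 and MAD2, had 72.3, 34.00 and 29.5 CPM in control and 177, 275 and 189 CPM in knockdown replicates and rose by 2.24 (SE 0.35), and the SUMO ligase RANBP2 rose by 1.70 (SE 0.35). TRIP13, the ATPase that takes apart the checkpoint complex, fell by 0.57 (SE 0.089). Among genes of CENPA loading, the histone chaperone NPM1 fell by 0.36 (adjusted p = 0.0142), a call lost with library size alone (0.0672). Of 19 genes of the anaphase-promoting complex and its helpers, 4 rose and 4 fell, 21.1% each. The E2 enzyme UBE2C rose by 0.57 (SE 0.088), and the subunit CDC26 and the activator FZR1 fell by 0.66 and 0.59.

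The next list of 16 genes covered cohesin, which holds sister chromatids together, its regulators and separase. Of these, 7 rose and 2 fell (43.8% and 12.5%, against 26.7% and 25.1% of all tested genes). Without knockdown replicate 2, 4 of the 16 rose, near the 26.1% of all genes. Of 8 condensin genes, which compact chromatids, 6 rose and 1 fell, and without that library 4 rose and 1 fell. STAG2, a cohesin subunit on chromosome X, had 80.6, 46.8 and 47.5 CPM and 284, 313 and 279 CPM and rose by 2.32 (SE 0.22), among neighbours with a median of 1.13. SMC3 and SMC1A rose by 1.55 and 0.97, and the condensin subunits NCAPG2 and NCAPH by 0.61 and 0.45, while NCAPH2 fell by 0.85. Of 28 tested spindle microtubule genes, 11 rose and 3 fell (39.3% and 10.7%). The spindle pole protein ASPM, at 49.3, 19.04 and 17.8 CPM and 142, 193 and 155 CPM, rose by 2.51 (SE 0.39), the microtubule polymerase CKAP5 rose by 1.18, and the chromokinesin KIF22 fell by 0.46. Control replicate 1 was the highest control for ASPM, SMC3, STAG2, TPR and RANBP2, as it was for the members with the largest rises.

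Of 11 genes of mitotic entry, 6 rose and 1 fell (54.5% and 9.09%, against 26.7% and 25.1% of all tested genes). CDK1, the kinase that drives entry, rose by 1.06 (SE 0.13) and NEK2, which separates centrosomes, by 0.87 (SE 0.090). PKMYT1, which inhibits CDK1, fell by 1.05 (SE 0.12). Of 21 tested regulators of cell cycle transcription, 6 rose and 4 fell (28.6% and 19.05%). RBL2, a pocket protein that represses cell cycle genes, rose by 1.01, and the E2F factors E2F2 and E2F4 fell by 1.49 and 0.76. Of 31 DNA replication genes, 2 rose and 18 fell (6.45% and 58.1%), with a median log2 fold change of -0.36 where that of all tested genes was 0.0030. The helicase subunit MCM5 fell by 1.08, the licensing factor CDT1 by 1.07 and GINS2 by 0.93.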

How the data were processed

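The authors deposited a table of whole-number read counts per Ensembl gene and FPKM values, per the file headers; counts, lengths and totals give the FPKM back to within 4.84e-08. Every row has an Ensembl gene identifier, but 629 rows have no symbol and could not be found by the rule for the members. Aligner, counting tool, strand setting and build were not given in the sources used here. Of 19852 identifiers found in GENCODE 29, 79.0% have a start or end in the deposited table equal to that on GRCh38. Counts were tested with edgeR 4.0.16 (R 4.3.3; limma 3.58.1, DESeq2 1.42.0 and mgcv 1.9.3 in alternatives) after filterByExpr and TMM scaling, with no covariate. A gene was called at an adjusted p (Benjamini-Hochberg, 12292 genes) below 0.05. Levels are TMM-scaled CPM. Library ratios use a pseudocount of 0.1 CPM. On simulated counts for 11926 genes of this comparison, 30.0% of 1.5-fold, 91.3% of 2-fold and 97.9% of 4-fold changes were recovered, with 15 of 167 calls false. The simulated counts were independent, with only 200 changed genes and no deviations shared across genes within a library. These rates may therefore not hold for the data. Named genes were SHMT2, up to 4 called members per role by adjusted p, members whose call changed without knockdown replicate 2, and up to 3 called genes per list; other members are named to account for all. A result that the rule takes from the lists is not reported here. Members and lists were chosen with earlier results of these data known. No other sample's column was present.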

Additional observations from a re-analysis of the deposited data

How the results depend on the processing

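Across scaling, filter, test and single-library alternatives, 14 to 22 members rose and 4 to 10 fell. Leaving out 1 library at a time gave 14 to 20 higher, 4 to 10 lower, 4748 to 6784 genes called in all, and a member median of 0.21 to 0.24. Leaving out control replicate 2 gave 4 falls and control replicate 3 gave 5. Without control replicate 1 and knockdown replicate 2 together, 30 members rose. At an adjusted p below 0.01, 13 members rose, 4 fell and 4166 genes passed in either direction. At an adjusted p below 0.05 with a 1.5-fold minimum, 14 members rose, 5 fell and 4204 genes passed in either direction. The member median was 0.32 with library size alone, 0.28 with limma on log2(FPKM + 1), 0.17 after the length and GC correction and 0.19 after subtraction of neighbours. SHMT2 kept its call throughout, between -5.07 and -3.89 where tested. Signs changed only in members without a call, and in the condensin gene NCAPH (-0.18 after subtraction of neighbours). With 1 library or both of those left out, these members ran over -0.030 to 0.20 (BUB3), -0.14 to 0.041 (CENPP), -0.20 to 0.015 (CENPT), -0.034 to 0.35 (CENPU), -0.41 to 0.072 (CENPW), -0.045 to 0.13 (MAD2L1), -0.055 to 0.40 (SKA3), -0.078 to 0.24 (TPX2) and -0.080 to 0.081 (ZWINT). With library size alone and with limma on log2(FPKM + 1), CENPP had 0.051 and 0.024, and ZWINT 0.070 and 0.053. Without both libraries that stood apart, TPX2 had -0.0076 and ZWINT 0.074. The cause was not tested.

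With the replicate number as a block, 17 members rose, 7 fell and 5444 genes passed, with a member median of 0.22 and SHMT2 at -4.84. The libraries share only a number: deviations of same-numbered libraries from their group means correlated at -0.39, -0.37 and 0.41 across genes for replicates 1, 2 and 3. Depth limits MAD1L1 and CENPS, with at most 16 and 41 counts in a library.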

Other observations

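Control replicate 1 and knockdown replicate 2 deviated from their groups in related ways. Across all 12292 tested genes, the log2 ratio of control replicate 1 to the other controls and that of knockdown replicate 2 to the other knockdown libraries had a Pearson correlation of 0.44 (Spearman 0.47), and across the 49 tested members 0.60 (Spearman 0.74). CENPE had 0.934 and 0.876 in the 2 ratios, CENPF 1.31 and 0.472, and CENPX -0.529 and -1.21. Genes of the same libraries are not independent, and these are descriptions.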
